A study of Homo sapiens with 2 samples.

Results

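Translation initiation factors were compared between bladder carcinoma cells with and without knockdown of CINP. The factors were chosen by name: every gene listed in the deposited tables whose symbol begins with EIF1, EIF2, EIF3, EIF4 or EIF5, apart from the eIF2 kinases, pseudogenes and readthrough genes. This gave 50 genes of the 19052 listed, or 49 once EIF3C and its near-identical copy EIF3CL were summed. Of these, 46 had 20 or more reads in at least 1 library and were compared, among 13076 compared genes in all. EIF5AL1, with 6 and 5 reads, and the antisense RNA EIF1B-AS1, with 1 and 0 reads, were below this minimum, and the level of EIF1AY, which is Y-linked, is not given here. The rule used names only and no measured value, but it was set with earlier results of these data known. A comparison of EIF2S2 with the other eIF2 subunits was part of that rule.

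The cells were TSU-Pr1, a human bladder carcinoma line that the labels also call K12 and that carries stable expression of the transcription factor KLF5 according to the series title. They were grown in 1640 medium with 8% serum, received either a control siRNA (siCtrl) or an siRNA against CINP (siCINP), and gave total RNA 48 h later. Both groups share the line, the stable KLF5 expression and the transfection, and differ in the siRNA. There was 1 library in each group, so no difference between the conditions could be tested, and each siRNA stands for the whole group. Sequences of the siRNAs were not used here.

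Initiation begins when eIF2, a complex of an alpha, a beta and a gamma subunit, brings the initiator tRNA and GTP to the small ribosomal subunit, where eIF1, eIF1A, eIF3 and eIF5 also bind. The eIF4F complex, made of the cap-binding protein eIF4E, the scaffold eIF4G and the helicase eIF4A, recruits the mRNA, and 4E-BP proteins block it by holding eIF4E. After the start codon is found, eIF2 leaves with GDP and is recharged by eIF2B, a step that phosphorylation of the alpha subunit inhibits, and eIF5B joins the large ribosomal subunit.

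Of the 46 factors, 2 were at least 2-fold lower in siCINP with a counting interval that excluded 0, namely EIF2S2, the beta subunit of eIF2, and EIF4E3, a scarce cap-binding protein. No factor was at least 2-fold higher by the same rule. Over all compared genes, 1.41% were lower and 1.69% higher by this rule. EIF2S2 was the only subunit of its complex with such a difference, and the alpha and gamma subunits were within 1.08-fold of their siCtrl value. All compared subunits of eIF2B and eIF3 were within 1.35-fold.

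The sequences below are some of the places in the 3' UTR of the factors that hold the heptamer TGCAAGA or GCAAGAA, a pair that was singled out earlier on these same data for its frequency among lower genes, so its presence in a lower gene is a description and supports nothing. Those of EIF2S2 and EIF4E3, the pair of factors past 2-fold, are shown with those of EIF4E, which also has 2 such places but a log2 ratio of -0.06, and of EIF3A and EIF4EBP2, which have 1 each and lie on opposite sides of 0. EIF2B1 and EIF2B4, both at -0.06, have 1 place each that is not shown. Each line gives the transcript from 5′ to 3′, with the heptamer in capitals, or the 8 bases TGCAAGAA in which both heptamers overlap, and 10 bases on either side, or 9 where both overlap. Sequences are from GENCODE 29 transcripts on GRCh38, a later build than that of the deposited tables, so no genome coordinates are given. Positions are counted from the first base after the stop codon.
EIF2S2, bases 140 to 146 of 1432: ctgaagtcctTGCAAGAcgctgatgct
EIF2S2, bases 259 to 265: ttctgtaaaaTGCAAGAtaaattaaag
EIF2S2, bases 350 to 356: ggtgaaatcaGCAAGAAaccaaccata
EIF4E3, bases 5260 to 5266 of 9266: tttagtgaaaTGCAAGAtttctttatg
EIF4E3, bases 8878 to 8885: gatatgatgTGCAAGAAttttgagat
EIF4E, bases 4700 to 4706 of 9344: tgggcatataGCAAGAAcagaatggtc
EIF4E, bases 5556 to 5562: ttatagctttTGCAAGAccgtttctac
EIF4EBP2, bases 481 to 487 of 6871: ggttcagtgtTGCAAGAgtctgggctt
EIF3A, bases 1805 to 1811 of 2369: agaacccaagTGCAAGAggagggcaga

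Both libraries had close to the same depth, with 10365289 rounded reads in siCtrl and 10314195 in siCINP, over 17847 and 18115 listed genes. The targeted gene CINP was at 203 reads (siCtrl) and 53 (siCINP), a log2 ratio of -2.01 (-2.47 to -1.56), which is in the direction of the labels. Of 16 urothelial and epithelial markers, 8 reached 20 reads, led by the keratins KRT8 and KRT18, while the uroplakins UPK2 and UPK3B were at 0 in both libraries and UPK1A, UPK1B and UPK3A stayed below 20. Several epithelial markers differed between the libraries, with KRT5 at 4 and 75 reads, KRT7 at 154 and 297, KRT19 at 20 and 44, EPCAM at 4 and 15 and FOXA1 at 44 and 27. None of 4 leukocyte markers reached 20 reads, and the prostate markers KLK2, KLK3 and TMPRSS2 were at 0 in both libraries. The 3 endothelial markers summed to 46 reads in siCtrl and 75 in siCINP, led by PECAM1. The part of these marker differences in the values of the factors was not tested. The initiation factors together made up 1.40% of the siCtrl reads and 1.52% of the siCINP reads. With 20 reads in each library the 95% interval of a log2 ratio reached 0.97 to either side, with 1000 reads 0.13 and with 10000 reads 0.04.

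Values are given as reads, the rounded expected counts that the authors deposited, as FPKM, the authors' level per length and library total, and as the log2 ratio of siCINP over siCtrl after scaling of the reads with the TMM method. The range in brackets after a ratio is an exact 95% interval on the split of the reads between both libraries. It covers counting error only, not variation between cultures, and in bulk RNA fewer cells with a transcript and less transcript per cell cannot be told apart.

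The beta subunit of eIF2, encoded by EIF2S2, binds eIF5 and eIF2B and helps to hold the initiator tRNA. EIF2S2 had 3936 reads in siCtrl and 1490 in siCINP, and its level per length was 140.48 and 53.46 FPKM. The log2 ratio was -1.47 (-1.56 to -1.38), or 2.77-fold lower. Its expected counts were whole in both libraries, which shows no sharing of reads with another gene but does not exclude it. Of all 13076 compared genes, 55 (0.421%) had a ratio as low or lower, EIF2S2 included. Among the 2598 genes with a mean of 1000 or more reads, 8 (0.308%) did. Because EIF2S2 was singled out with earlier results of these data known, these shares describe its place and support nothing. The listed length of the gene, 2696.08 bases in siCtrl and 2695.41 in siCINP, was nearly the same in both libraries.

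The alpha subunit, EIF2S1, is the target of the eIF2 kinases, and had 2050 and 2279 reads, or 47.13 and 52.66 FPKM. Its log2 ratio was 0.08 (0.00 to 0.17). The gamma subunit, EIF2S3, binds GTP and the tRNA, and had 1723 and 1958 reads, or 47.41 and 54.16 FPKM, with a log2 ratio of 0.12 (0.02 to 0.21). The interval thus lay just above 0 for EIF2S3 and reached 0 for EIF2S1, which lay above 0 under the other 3 scalings tried, and both had fractional expected counts in at least 1 library, which can arise where reads are shared between genes.

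The balance of subunit transcripts within eIF2 therefore differed between the libraries. In siCtrl the level of EIF2S2 was 2.97 times the mean level of the other subunits in FPKM, and in siCINP it was 1.0 times that mean. Its share of the summed FPKM of the 3 subunits was 59.8% in siCtrl and 33.4% in siCINP. The ratio of EIF2S2 reads to those of EIF2S1 plus EIF2S3 had a log2 difference of -1.57 (-1.68 to -1.46), or 2.97-fold lower, and this value does not depend on the scaling between libraries. Against EIF2S1 alone it was -1.55 (-1.68 to -1.43), and against EIF2S3 alone -1.59 (-1.71 to -1.46). The ratio of EIF2S3 to EIF2S1 had a difference of 0.03 (-0.10 to 0.16), an interval that includes no change. In siCtrl EIF2S2 stood well above the other subunits, and in siCINP the order EIF2S3, EIF2S2, EIF2S1 separated levels whose counting intervals overlapped.

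**Figure D1:**
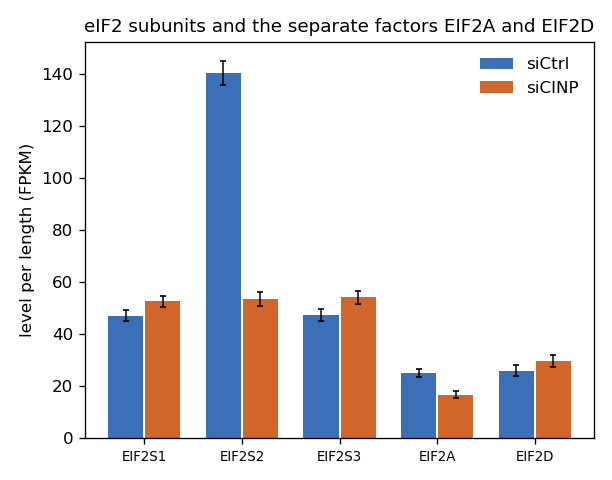
Level per length (FPKM, vertical axis from 0) of the 3 eIF2 subunits and of EIF2A and EIF2D in siCtrl and siCINP, 1 library each. Bars are the authors' FPKM and lines the 95% counting interval. EIF2S2 is at 140.48 in siCtrl and at 53.46 in siCINP, beside EIF2S1 at 52.66 and EIF2S3 at 54.16.

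EIF2A and EIF2D are single proteins outside the eIF2 complex, both reported to bring tRNA to the ribosome without it. EIF2A had 1051 reads in siCtrl and 698 in siCINP, or 25.15 and 16.79 FPKM, with a log2 ratio of -0.66 (-0.80 to -0.52). EIF2D had 565 and 648 reads, or 25.88 and 29.74 FPKM, with a ratio of 0.13 (-0.04 to 0.29). The pair stood at nearly the same level in siCtrl, and EIF2A was below EIF2D in siCINP. The ratio of EIF2A to EIF2D reads differed by -0.79 (-1.01 to -0.57) on the log2 scale. The expected counts of EIF2A were fractional, so part of its reads may be shared with another gene.

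The exchange factor eIF2B, which recharges eIF2 with GTP, had 5 subunits with ratios from -0.06 to 0.17, and all 5 intervals included 0 with TMM scaling. Under total-count scaling EIF2B2 was at 0.23 (0.06 to 0.39) and EIF2B3 at 0.24 (0.03 to 0.45), both above 0. With upper quartile scaling both were again above 0, at 0.20 (0.03 to 0.36) and 0.21 (0.00 to 0.42). With DESeq2 scaling EIF2B2 was above 0, at 0.17 (0.01 to 0.34), and EIF2B3 was not, at 0.19 (-0.02 to 0.40). The catalytic subunit EIF2B5 had 592 and 608 reads, with a log2 ratio of -0.03 (-0.20 to 0.14). EIF2B3, which forms the catalytic module with it, had 347 and 409 reads, with a ratio of 0.17 (-0.04 to 0.38). The regulatory subunits EIF2B1, EIF2B2 and EIF2B4 sense the phosphorylated alpha subunit of eIF2. Of these EIF2B1 had 567 and 570 reads (-0.06), EIF2B2 had 551 and 642 (0.15), and EIF2B4 had 445 and 448 (-0.06). Levels per length ran from 19.64 FPKM for EIF2B5 to 34.40 for EIF2B2 in siCtrl and from 20.27 to 40.28 in siCINP, in the same order of subunits in both libraries. EIF2B1, EIF2B2 and EIF2B4 were the highest and EIF2B3 and EIF2B5 the lowest in each. The counting intervals of EIF2B4 (22.6 to 27.3) and EIF2B3 (21.2 to 25.8) overlapped in siCINP, however. Those of EIF2B3 and EIF2B5 overlapped in both libraries. At these depths the intervals reached about 0.2 to either side of a ratio, so ratios much closer to 0 could not be told from it. The summed reads of EIF2S1 and EIF2S3 over those of the 5 eIF2B subunits differed by 0.07 (-0.03 to 0.17).

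The eIF1 group acts in scanning and in the choice of the start codon. EIF1, which keeps the scanning complex open, had 5812 reads in siCtrl and 4764 in siCINP, or 427.83 and 352.42 FPKM, with a log2 ratio of -0.36 (-0.41 to -0.30). Its close copy EIF1B had 274 and 316 reads, with a ratio of 0.14 (-0.10 to 0.38). EIF1AX, the X-linked gene of eIF1A, had 988 and 1095 reads and a ratio of 0.08 (-0.05 to 0.21). With TMM scaling EIF1 was thus the member of the group with an interval wholly on 1 side of 0, and under total-count scaling EIF1AX lay above 0 as well. EIF1AD, a protein with an eIF1A-like domain, had 408 and 382 reads with fractional counts and a ratio of -0.16 (-0.37 to 0.04). EIF1 over EIF1AX differed by -0.44 (-0.57 to -0.30). The order of levels per length was EIF1, EIF1B, EIF1AX, EIF1AD in both libraries, with EIF1 31.0 times EIF1AD in siCtrl and 27.3 times in siCINP.

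The largest complex, eIF3, binds the small ribosomal subunit and links it to eIF4G. Its 13 subunits had a median log2 ratio of -0.05, with values from -0.29 to 0.43. The interval lay above 0 for 5 subunits, below 0 for 6 and across 0 for 2, which is 38.5% above and 46.2% below. Over all compared genes it lay above 0 for 18.6% and below 0 for 23.1%, and over genes with a mean of 1000 or more reads, as all 13 subunits have, for 24.8% and 43.2%. Of the 6 lower subunits, EIF3E, EIF3I and EIF3L had an interval that no longer lay below 0 under at least 1 of the other scalings tried. The subunits therefore did not share 1 direction.

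Of the eIF3 subunits that carry most of its contacts with other factors, EIF3A, which forms the scaffold of the complex, had 4672 and 6122 reads, or 84.17 and 110.85 FPKM. Its log2 ratio was 0.32 (0.27 to 0.38). EIF3B, which binds EIF3A and the small subunit, had 2336 and 3053 reads, or 73.76 and 97.11 FPKM, also with a ratio of 0.32 (0.24 to 0.40). These subunits were higher in siCINP to about the same degree. EIF3C with EIF3CL had 11537 and 12730 reads, or 357.10 and 396.19 FPKM, and a ratio of 0.07 (0.04 to 0.11). Taken apart, EIF3C had 11389 and 12730 reads and EIF3CL 148 and 0, but the copies are nearly identical and a split of reads between them is uncertain. EIF3G had 1814 and 1675 reads and a ratio of -0.18 (-0.28 to -0.09). EIF3I had 3661 and 3515 reads with fractional counts and a ratio of -0.13 (-0.19 to -0.06). EIF3G and EIF3I, the small subunits of this core, were thus on the other side of 0 from EIF3A and EIF3B.

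Among the 8 remaining eIF3 subunits, EIF3F was the highest in siCINP relative to siCtrl, with 2039 and 2880 reads, or 156.40 and 222.00 FPKM. Its log2 ratio was 0.43 (0.35 to 0.51), and against all other eIF3 subunits it was 0.40 (0.31 to 0.48). EIF3H, which like EIF3F carries an MPN domain, had 1824 and 2110 reads and a ratio of 0.14 (0.05 to 0.23). Both MPN subunits were on the higher side. EIF3J, a loosely attached subunit, had 1360 and 1169 reads, or 50.91 and 44.06 FPKM, with a ratio of -0.29 (-0.40 to -0.17). EIF3M had 2311 and 2098 reads and a ratio of -0.21 (-0.29 to -0.12). EIF3L had 4378 and 4234 reads, with -0.12 (-0.18 to -0.06). These 3 were on the lower side, at 1.08-fold to 1.22-fold. EIF3E had 2891 and 2874 reads, with -0.08 and an interval from -0.15 to just under 0. EIF3D, the subunit reported to bind the cap of some mRNAs, had 2392 and 2429 reads, with -0.05 (-0.13 to 0.04). EIF3K had 1210 and 1233 reads, with -0.04 (-0.16 to 0.07). For EIF3D and EIF3K the intervals included 0.

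The levels of eIF3 subunits per length differed more between subunits than between libraries. EIF3C with EIF3CL was the highest and EIF3J the lowest in both, with a ratio of 7.01 in siCtrl and 8.99 in siCINP. Next to EIF3J came EIF3B and EIF3A at the low end in each library. The place in the order that differed most was that of EIF3F, which stood sixth from the top in siCtrl and next to EIF3C in siCINP, above EIF3L at 196.59 FPKM. Neighbours such as EIF3E at 185.48 and EIF3I at 182.87 FPKM in siCtrl were within their counting intervals.

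**Figure D2:**
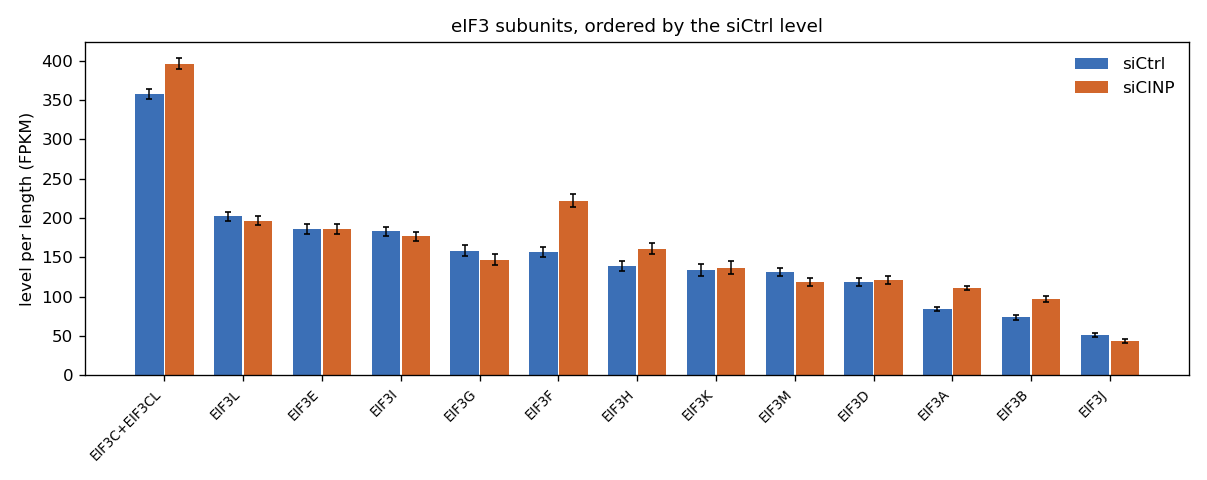
Level per length (FPKM, vertical axis from 0) of the 13 eIF3 subunits in siCtrl and siCINP, 1 library each, ordered by the siCtrl level. Bars are the authors' FPKM and lines the 95% counting interval. EIF3F is at 156.40 in siCtrl and 222.00 in siCINP, and EIF3C with EIF3CL is the highest in both.

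In eIF4F, the helicase EIF4A1 unwinds the mRNA leader and was among the most abundant factors, with 13124 reads in siCtrl and 18202 in siCINP, or 670.67 and 934.85 FPKM. Its log2 ratio was 0.40 (0.37 to 0.44), or 1.32-fold higher. Its counts were fractional, and the readthrough gene SENP3-EIF4A1, which overlaps it, had 96 and 132 reads. Its paralog EIF4A2 had 2008 and 2368 reads and a ratio of 0.17 (0.08 to 0.26). EIF4A3, the helicase of the exon junction complex, had 1193 and 1314 reads and a ratio of 0.07 (-0.04 to 0.19). EIF4A1 over EIF4A2 differed by 0.23 (0.14 to 0.33), so the abundant helicase was higher also relative to its paralog.

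The scaffold EIF4G1 joins eIF4E, eIF4A and eIF3, and had 9706 and 11407 reads, or 167.02 and 197.25 FPKM, with a log2 ratio of 0.16 (0.13 to 0.20). EIF4G3, a paralog with the same partners, had 1951 and 2434 reads with fractional counts and a ratio of 0.25 (0.16 to 0.34). EIF4G2, which lacks the binding site for eIF4E, had 18846 and 19625 reads, or 463.54 and 484.53 FPKM, with a ratio of -0.01 (-0.04 to 0.02). The scaffolds that bind eIF4E were therefore higher, while the interval of EIF4G2 included 0, and EIF4G1 over EIF4G2 differed by 0.17 (0.13 to 0.22). Under total-count scaling the ratio of EIF4G2 was 0.07, above 0.

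The cofactors of the helicase were on the other side. EIF4B had 6416 and 6137 reads and a log2 ratio of -0.13 (-0.18 to -0.08). EIF4H had 2898 and 2500 reads, or 111.26 and 96.63 FPKM, and a ratio of -0.28 (-0.36 to -0.20). EIF4H over EIF4B differed by -0.15 (-0.24 to -0.06). Both stayed below 0 under the 4 scalings tried.

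The cap-binding proteins included the main factor EIF4E, with 892 and 898 reads, fractional counts and a log2 ratio of -0.06 (-0.19 to 0.08). EIF4E2, which binds the cap and represses translation, had 927 and 929 reads and a ratio of -0.07 (-0.20 to 0.07). Both thus had nearly the same number of reads in each library. EIF4E3 had 47 reads in siCtrl and 18 in siCINP, or 0.74 and 0.28 FPKM. Its log2 ratio was -1.45 (-2.32 to -0.64), or 2.74-fold lower, but its interval is wide and reaches within 2-fold. It was a scarce transcript, at 0.939% of the summed FPKM of the 3 cap-binding genes in siCtrl and 0.350% in siCINP.

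Of the proteins that bind and hold eIF4E, EIF4EBP1 had 698 and 722 reads and a log2 ratio of -0.02 (-0.17 to 0.13). EIF4EBP2 had 1604 and 1198 reads with fractional counts, or 20.31 and 15.25 FPKM, and a ratio of -0.49 (-0.60 to -0.38). The pair differed, since EIF4EBP2 over EIF4EBP1 was -0.47 (-0.66 to -0.28). EIF4ENIF1, which carries eIF4E into the nucleus, had 412 and 402 reads and a ratio of -0.10 (-0.31 to 0.10). Per length EIF4EBP1 was the more abundant inhibitor in both libraries, at 78.83 and 81.94 FPKM.

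The eIF5 group acts around start codon recognition and later. EIF5, which makes eIF2 hydrolyse GTP, had 4193 and 4161 reads and a log2 ratio of -0.08 (-0.14 to -0.02), which came to 0.00 under total-count scaling. EIF5B had 2271 and 2869 reads, or 46.24 and 58.71 FPKM, with a ratio of 0.27 (0.19 to 0.35). EIF5A, a hypusine-bearing factor that acts mainly in elongation and termination, was the most abundant member, with 15820 and 18545 reads, or 1170.91 and 1379.62 FPKM, and a ratio of 0.16 (0.13 to 0.19). EIF5B and EIF5A were thus higher in siCINP. The paralog EIF5A2 had 343 and 233 reads, or 5.91 and 4.04 FPKM, and a ratio of -0.63 (-0.87 to -0.38). The ratio of EIF5A2 to EIF5A differed by -0.79 (-1.04 to -0.54). Both paralogs had fractional counts, and the copy EIF5AL1 had few reads in either library.

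The noncoding EIF3J-DT, transcribed away from the start of EIF3J, had 95 and 150 reads with fractional counts and a log2 ratio of 0.59 (0.21 to 0.98), on the other side of 0 from EIF3J. No source used here says whether the counting used strand, so reads where both overlap could not be told apart.

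**Figure D3:**
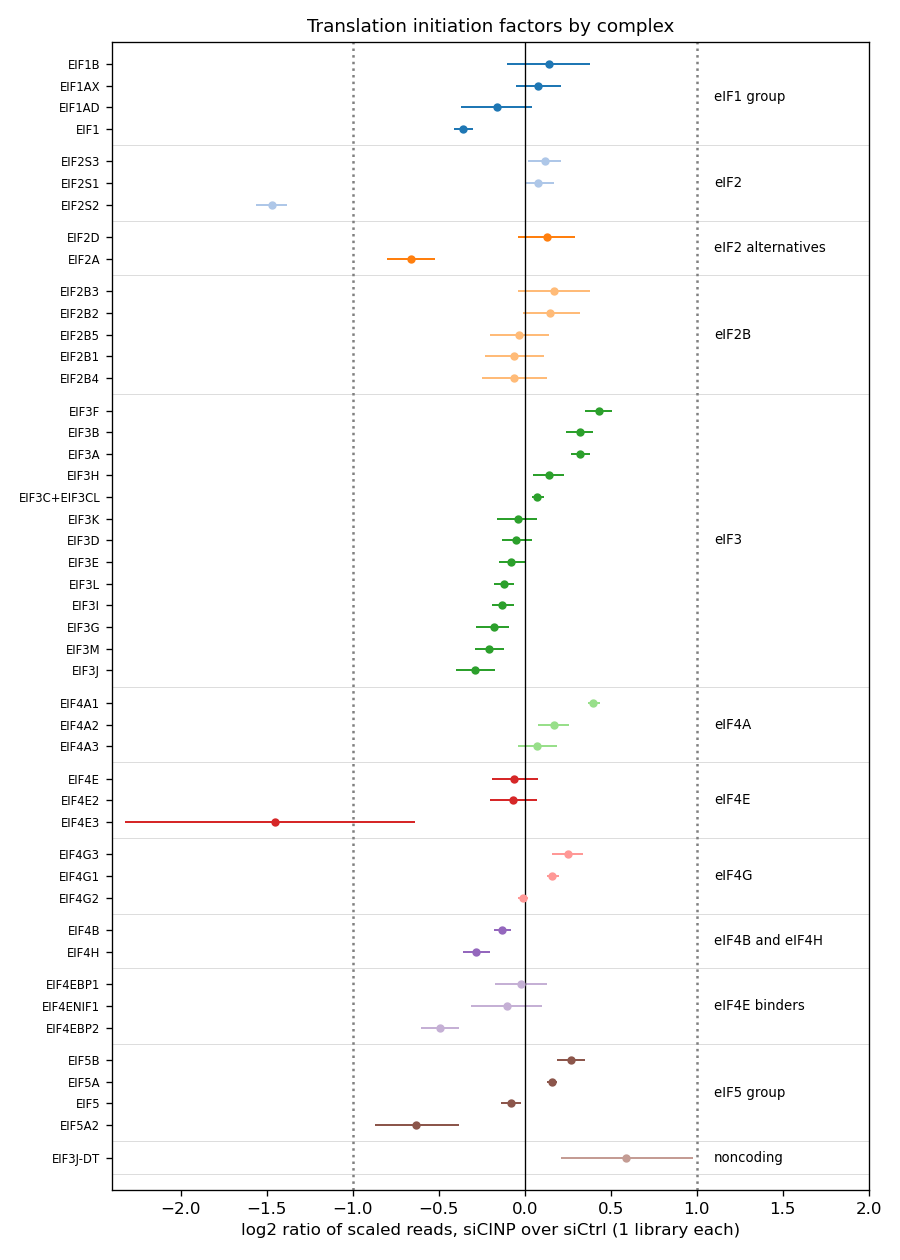
Log2 ratio of scaled reads, siCINP over siCtrl, for the 46 compared factors by complex, 1 library in each group. Points are ratios, lines 95% counting intervals and dotted lines 2-fold. EIF2S2 at -1.47 and EIF4E3 at -1.45 lie left of the 2-fold line, and no factor lies right of the other.

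Over the 46 compared factors the median log2 ratio was -0.04, with quartiles of -0.13 and 0.15, and over all compared genes it was -0.01, with quartiles of -0.21 and 0.20. Under total-count scaling the median of the factors was 0.04 and that of all genes 0.06, so the median has no fixed sign. Within 1.5-fold lay 41 factors (89.1%), close to the 88.0% of all genes. The interval lay above 0 for 13 factors (28.3%) and below 0 for 15 (32.6%), beside 18.6% and 23.1% of all genes. Intervals narrow with depth, and 30 of the 46 factors had a mean of 1000 or more reads. Among genes with a mean of 1000 or more reads, 12 of 30 factors (40.0%) had an interval above 0 and 12 (40.0%) below, beside 24.8% and 43.2% of the 2598 genes.

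The sides of 0 depended on scaling for some factors. The 13 factors with an interval above 0 were EIF2S3, EIF3A, EIF3B, EIF3C with EIF3CL, EIF3F, EIF3H, EIF4A1, EIF4A2, EIF4G1, EIF4G3, EIF5A, EIF5B and EIF3J-DT, and they were above 0 under all 4 scalings. Over all genes 18.6% were above 0 under all 4. Below 0 under all 4 were 11 factors, namely EIF1, EIF2S2, EIF2A, EIF3G, EIF3J, EIF3M, EIF4E3, EIF4B, EIF4H, EIF4EBP2 and EIF5A2, and over all genes 16.7% were. The remaining 4 of the 15, which are EIF3E, EIF3I, EIF3L and EIF5, were below 0 under some scalings and not under others. A further 7 factors were above 0 under some scalings but not with TMM, namely EIF1AX, EIF2S1, EIF2D, EIF2B2, EIF2B3, EIF4A3 and EIF4G2. All 7 were above 0 with total-count scaling, where 26.6% of all genes were, beside 18.6% with TMM. The share of all genes on 1 side of 0 under only some scalings was not computed.

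**Figure D4:**
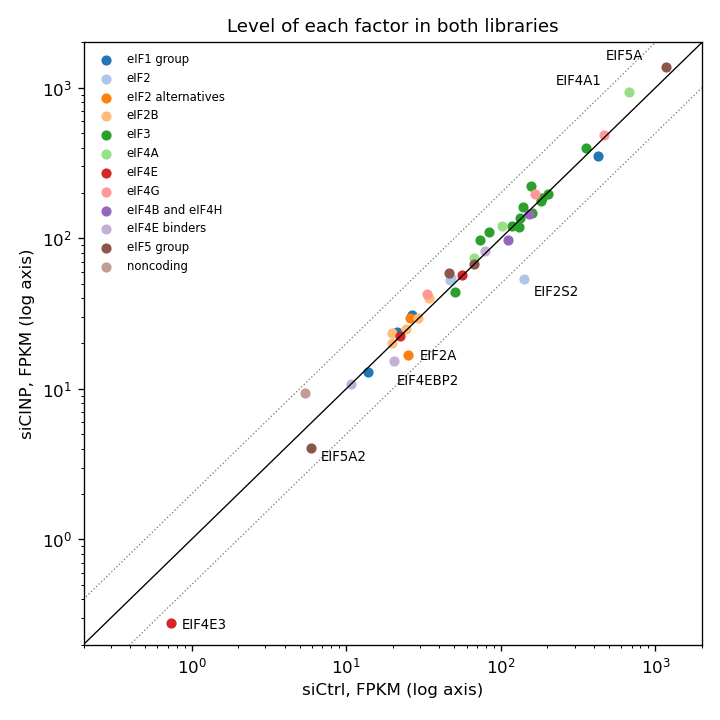
Level per length of each compared factor in siCINP (vertical) against siCtrl (horizontal), in FPKM on log axes, 1 library each. The solid line marks equal levels and the dotted lines 2-fold. EIF2S2 and EIF4E3 lie below the lower dotted line, and levels run from below 1 FPKM for EIF4E3 to over 1000 FPKM for EIF5A.

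The heptamers shown above were looked for on the transcript strand in the longest annotated 3' UTR of each gene. They were present in 7 of 45 protein-coding factors (15.6%) and in 2147 of 11689 compared genes with such a UTR (18.4%), so the factors carried them about as often as other genes. The carriers were EIF2S2 with 3 separate places, EIF4E3 and EIF4E with 2 each, and EIF2B1, EIF2B4, EIF3A and EIF4EBP2 with 1 each. Their log2 ratios ran from -1.47 for EIF2S2 to 0.32 for EIF3A, with a median of -0.06, beside -0.01 for the 38 factors without the heptamers. Since the pair was singled out on these same data, this comparison is a description and supports nothing. The UTRs also differed, with a median of 2369 bases in the carriers and 709 in the 38 others. EIF2S1 and EIF2S3, the other subunits of eIF2, carried none. Of the 11689 compared genes with such a UTR, 106 (0.907%) held 3 or more such places, as EIF2S2 did in 1432 bases. For EIF2B4 the transcripts listed in the deposited tables had a UTR of at most 48 bases without a heptamer. For EIF4E and EIF4E3 the annotated transcripts matched to those listed included UTRs of 9344 and 9266 bases that held heptamers. These UTRs exceed the listed gene lengths of 3838 and 6091 bases in siCtrl, so whether the listed transcripts reach the places is uncertain. Another pair singled out in the same way, TCGGAGA and CGGAGAA, was present in EIF4B and EIF4H (4.4% of factors) and in 4.2% of the 11689 genes.

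Other genes that act with these factors were described from a list of 44, of which 43 were compared. None was at least 2-fold higher or lower, the median log2 ratio was 0.00, and the interval lay above 0 for 11, below 0 for 14 and across 0 for 18. These are 25.6% above and 32.6% below, beside 18.6% and 23.1% of all compared genes, and 24.8% and 43.2% of those with a mean of 1000 or more reads. Among the eIF2 kinases, EIF2AK4, the kinase that responds to amino acid shortage, had 1022 and 723 reads with fractional counts and a ratio of -0.57 (-0.71 to -0.43). EIF2AK2, which responds to double-stranded RNA, had 922 and 1145 reads with fractional counts and a ratio of 0.24 (0.12 to 0.37). EIF2AK1 and EIF2AK3 had ratios of 0.08 and 0.05, with intervals that included 0. The kinases thus did not share a direction.

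Of the phosphatase that acts on the alpha subunit of eIF2, the stress-induced regulatory subunit PPP1R15A had 920 and 1200 reads and a log2 ratio of 0.32 (0.19 to 0.44), and the constitutive PPP1R15B 1127 and 1063 reads and -0.15 (-0.27 to -0.03). The catalytic subunit PPP1CA had 2570 and 1944 reads and a ratio of -0.47 (-0.56 to -0.39), and PPP1CC 1781 and 2230 reads and 0.26 (0.17 to 0.35). The catalytic subunit PPP1CB had 1375 and 1165 reads and a ratio of -0.31 (-0.42 to -0.19), on the side of PPP1CA. Both regulatory and catalytic subunits therefore held members on either side of 0. DENR, which acts in reinitiation and recycling with MCTS1, had the highest ratio of the list, with 819 and 1407 reads, fractional counts and 0.71 (0.59 to 0.84). MCTS1 itself was at 0.08 (-0.07 to 0.23). The poly(A)-binding protein PABPC4 was at 0.25 (0.16 to 0.33), the release factor ETF1 at 0.22 (0.15 to 0.29) and the eIF4E kinase MKNK2 at 0.23 (0.12 to 0.34). On the lower side, PAIP1, a partner of the poly(A)-binding protein, was at -0.40 (-0.54 to -0.25), the S6 kinase RPS6KB1 at -0.39 (-0.56 to -0.22), the helicase DDX3X at -0.29 (-0.35 to -0.23) and the elongation factor EEF1A1 at -0.24 (-0.25 to -0.23). RPS6KB1, DDX3X and EEF1A1 had fractional counts.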

How the data were processed

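Total RNA was sequenced on a BGISEQ-500, per the series design text. For each library the authors deposited a table that lists genes with their length, expected count and FPKM, per the file headers. By the usual meaning of these terms, expected counts are estimated reads per gene and need not be whole, and FPKM is scaled for length and library total. Bowtie2, HISAT and the build hg19 appear in the submitters' processing notes. No versions stand beside them, and no source used here names the counting tool, the annotation or the use of strand.

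Symbols were taken from a RefSeq table of GRCh38, which matched 18971 identifiers and left 81 without one. Expected counts were rounded, EIF3C and EIF3CL were summed, and libraries were scaled by TMM (edgeR 4.0.16, R 4.3.3). Factors were 0.974 and 1.026. Ratios have exact Clopper-Pearson 95% intervals (scipy 1.17.1), covering counting error only, and a 0 stood at 3 reads. Counts were called fractional beyond 0.005 from a whole number, except that the sum of EIF3C with EIF3CL was set as not whole. The 2-fold rule describes size and is not a test. Its calls were tested on simulated counts that held counting error only, so variation between cultures was not covered. Changes were planted only in genes with 100 or more expected reads, a depth that EIF4E3 does not reach. All factors with 20 or more reads are named, with up to 6 other pathway genes in each direction, ranked by the distance from 0 of the nearer end of the interval, and the eIF2 kinases, PPP1R15A and PPP1R15B in any case. MCTS1 and PPP1CB were added after their values were seen. A gene of the marker lists is not reported here. The members and lists were chosen with earlier results of these data known. Alternatives were scaling by totals, by upper quartiles or by DESeq2 1.42.0, FPKM with pseudocounts of 0.1 and 1, other minimums and size rules, means, and whole counts only, the last chosen after seeing the data. Figures were drawn with matplotlib 3.10.9.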

Additional observations from a re-analysis of the deposited data

How the results depend on the processing

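No paired analysis was possible because each group had 1 library, and for the same reason no replicate could be left out. Of 231 values of single factors under other scalings and scales, 185 moved by less than their counting interval, 46 moved by more and none changed the direction of a factor called higher or lower. EIF2S2 was at -1.38 from FPKM with a pseudocount of 1, where EIF4E3 was at -0.44. EIF3C with EIF3CL was at 0.15 with total-count scaling and with FPKM and either pseudocount, and at 0.12 with upper quartile scaling. By a 1.5-fold rule 1 factor was higher, EIF3J-DT, and 4 were lower, namely EIF2S2, EIF4E3, EIF2A and EIF5A2. Whatever the interval, 89.1% of the factors and 88.0% of all compared genes lay within 1.5-fold. The share of all genes called in each direction by this rule was not computed. With a minimum of 100 reads, or with an interval wholly beyond 2-fold, 1 was lower, EIF2S2, and the share of all genes was not computed for either rule. Intervals above 0 numbered 20 of the 46 factors with total-count scaling, beside 26.6% of all genes. With whole counts only they numbered 7 of 33 factors, a smaller set for which the share of all genes was not computed. That set left out the sum of EIF3C with EIF3CL, although its counts were whole. The median of eIF2 was -1.47 with whole counts only, since EIF2S2 alone was left, and -0.42 as a mean. That of EIF2A and EIF2D was 0.13 with whole counts only, since EIF2D alone was left. The median of the eIF5 group, 0.04, was -0.08 with no minimum of reads and -0.07 as a mean. With 1 library in each group, variation between cultures, and the effect of a second siRNA, could not be assessed for any of these values. EIF4E3, with the fewest reads, had the widest interval of the compared factors.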
